A study of Rattus norvegicus with 12 samples.

Results

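The 10 genes described here, Actn2, Actn3, Ldb3, Myoz1, Myot, Tcap, Flnc, Des, Myom1 and Myom2, encode structural proteins that hold the contractile apparatus of striated muscle together. They were taken by name from the deposited count table, where each occurs once, and they make up 10 of its 30560 genes. All 10 passed the filter on low counts that left 26483 genes for testing. RNA was sequenced from mitochondria of the hindlimb muscle, named as gastrocnemius in the design text, of a single wild-type male Wistar Kyoto rat aged 14 weeks. The 4 preparations, each with 3 libraries, were all treated with RNase A. They were mitoplasts, the inner compartment left once the outer membrane is removed, made from mitochondria captured on magnetic beads by immunoprecipitation; captured mitochondria treated with proteinase K as well as RNase A; captured mitochondria treated with RNase A alone; and crude mitochondria, which were isolated by differential centrifugation. The source label of the crude libraries also names immunoprecipitation, whereas their titles say crude mitochondria and the design gives differential centrifugation, and the titles were followed. The 12 libraries came from aliquots of 1 pooled homogenate, so p-values measure the spread between aliquots and not between animals.

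In a muscle fibre the thin actin filaments of neighbouring sarcomeres are anchored at the Z-disc, where alpha-actinin crosslinks them and a set of linker proteins ties alpha-actinin to titin, to filamins and to signalling proteins. The thick myosin filaments are crosslinked midway between Z-discs at the M-band by myomesins. Desmin intermediate filaments surround the Z-discs and connect neighbouring myofibrils with each other, with the cell membrane and with organelles, mitochondria among them. The messenger RNAs of these genes are transcribed in the nucleus and translated in the cytosol.

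Values below are CPM, a gene's count relative to the effective library size set by the trimmed mean of M values (TMM), unless another scale is named. Total counts per library were 3325430 to 4563254 in mitoplasts and both captured preparations and 6583452 to 7123045 in crude mitochondria. Genes of the mitochondrial genome took 2.52 to 3.94% of the counts in mitoplasts, 2.06 to 3.36% in proteinase K-treated captured mitochondria, 3.33 to 10.9% in captured mitochondria and 41.2 to 54.0% in crude mitochondria. The third captured library held the 10.9%. Libraries of crude mitochondria were made from 6.3 ng of RNA and all others from 40 ng. Isolation method, RNA input and mitochondrial share changed together between crude mitochondria and the other preparations and cannot be told apart. The median count of 1115 olfactory receptor genes, which muscle is not known for expressing, was 38 to 46 in mitoplasts, 40 to 49 in proteinase K-treated captured mitochondria, 37 to 44 in captured mitochondria and 30 to 34 in crude mitochondria. That median is given beside some counts below as an off-tissue level, with no correction for transcript length. Transcript lengths were not used here, so raw counts and CPM do not rank genes by their level, and a ratio to the olfactory receptor median is read between libraries only.

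Relative to the median of all genes tested, all 10 structural genes were lower in each bead-captured preparation than in crude mitochondria. The size of the difference ran over more than an order of magnitude, from 16-fold for Tcap to 1.23-fold for Myom1 in captured mitochondria. All 10 fell in captured mitochondria against crude mitochondria (edgeR's quasi-likelihood test, Benjamini-Hochberg adjusted p under 0.05), beside 5.11% of all genes tested that fell. All 10 also fell in proteinase K-treated captured mitochondria, beside 5.03% of all genes, and in mitoplasts, beside 4.54% of all genes. DESeq2 called all 10 lower in mitoplasts, after proteinase K and in captured mitochondria too, beside 3.65%, 4.02% and 3.91% of the genes it gave an adjusted p. The 3 comparisons share the same crude libraries. In bulk RNA, fewer fragments of muscle fibre and less RNA per fragment cannot be told apart. These directions hold on the TMM scale, which sets the median gene close to 0, and several of them turn when counts are divided by the total count or by the counts of mitochondrial mRNAs. The turns are given beside each gene.

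**Figure D1:**
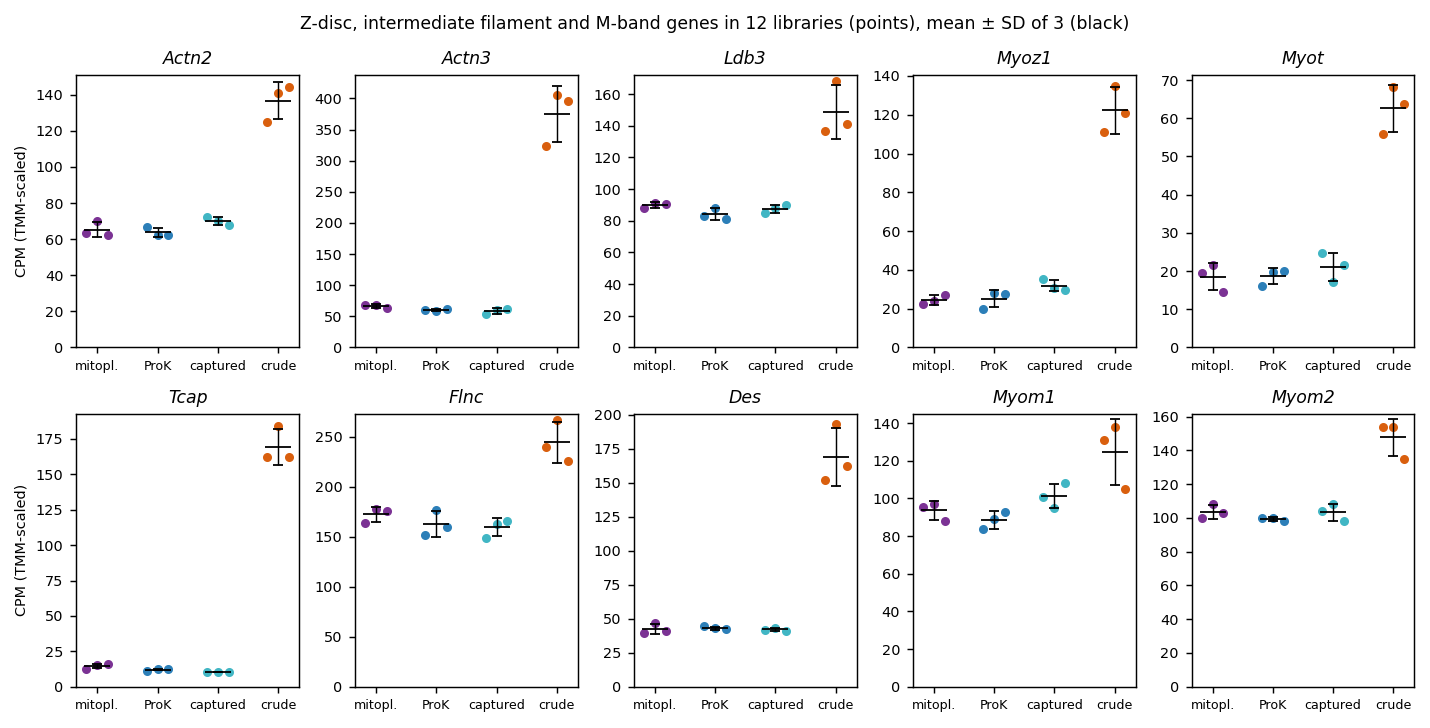
TMM-scaled CPM of each of the 10 genes, 1 panel a gene, in mitoplasts, proteinase K-treated captured mitochondria (ProK), captured mitochondria and crude mitochondria; points are libraries, and black marks show the mean and SD of 3. Tcap averaged 10.5 to 14.6 CPM in the 3 bead-captured preparations and 169 CPM in crude mitochondria, while the Myom1 values of captured mitochondria (94.9 to 108 CPM) overlapped those of crude mitochondria (105 to 138 CPM).

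The alpha-actinins are the crosslinkers of the Z-disc. Actn3 (ENSRNOG00000019745) encodes the isoform of fast muscle fibres. It had 68.5, 67.8 and 63.5 CPM in mitoplasts, 59.9, 59.3 and 61.1 CPM in proteinase K-treated captured mitochondria, 53.7, 60.7 and 61.4 CPM in captured mitochondria, and 324, 406 and 396 CPM in crude mitochondria. Every crude library was far above every other library, and the 9 bead-captured libraries lay within a narrow band. Actn3 fell, with log2 fold changes of -2.49 ± 0.0822 in mitoplasts (SE; adjusted p = 8.4e-32), -2.64 ± 0.0831 in proteinase K-treated captured mitochondria (adjusted p = 8.33e-33) and -2.68 ± 0.0848 in captured mitochondria (adjusted p = 1.18e-32), each against crude mitochondria by edgeR. It was also lower per total count in every bead-captured library (64.1 to 73.7 CPM by library size in captured mitochondria against 209 to 220 in crude mitochondria), and higher when scaled to mitochondrial mRNA.

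Actn2 (ENSRNOG00000017833) encodes the alpha-actinin found in all skeletal fibres and in heart. It had 63.5, 69.9 and 62.4 CPM in mitoplasts, 66.5, 62.2 and 62.4 CPM in proteinase K-treated captured mitochondria, 72.3, 69.9 and 68.0 CPM in captured mitochondria, and 125, 141 and 144 CPM in crude mitochondria. The crude libraries again stood above all others, at a much smaller distance than for Actn3. Actn2 fell, with log2 fold changes of -1.06 ± 0.0808 in mitoplasts, -1.10 ± 0.0809 in proteinase K-treated captured mitochondria and -0.96 ± 0.0814 in captured mitochondria (SE; edgeR adjusted p = 6.49e-16, 1.8e-16 and 3.79e-14). By library size the groups overlapped for Actn2, with 76.2 to 84.8 in mitoplasts, 75.8 to 81.7 in proteinase K-treated captured mitochondria, 76.2 to 86.3 in captured mitochondria and 74.3 to 84.8 in crude mitochondria, and scaled to mitochondrial mRNA the gene was higher in the bead-captured preparations.

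The linker proteins of the Z-disc include telethonin, encoded by Tcap (ENSRNOG00000068106), which caps the end of titin. Tcap had 12.7, 15.3 and 15.9 CPM in mitoplasts, 11.4, 12.4 and 12.6 CPM in proteinase K-treated captured mitochondria, 10.5, 10.7 and 10.5 CPM in captured mitochondria, and 162, 184 and 162 CPM in crude mitochondria. As raw counts these were 61, 78 and 73 in mitoplasts, 64, 56 and 59 in proteinase K-treated captured mitochondria, 45, 43 and 46 in captured mitochondria, and 723, 690 and 579 in crude mitochondria. The bead-captured libraries held few Tcap reads. The fold change was 11.5-fold lower in mitoplasts, 14.0-fold lower in proteinase K-treated captured mitochondria and 16.0-fold lower in captured mitochondria than in crude mitochondria. On the log2 scale these were -3.53 ± 0.0969, -3.80 ± 0.0999 and -4.00 ± 0.106 (SE; edgeR adjusted p = 1.52e-35, 1.71e-36 and 3.07e-36). The count of Tcap was 1.42 to 1.92 times the median olfactory receptor count in mitoplasts, 1.31 to 1.44 times in proteinase K-treated captured mitochondria, 1.02 to 1.16 times in captured mitochondria and 19.3 to 21.3 times in crude mitochondria. This multiple was lower in every bead-captured library than in every crude library. Tcap was lower by library size too, and scaled to mitochondrial mRNA it was higher in mitoplasts and after proteinase K, with no call in captured mitochondria (log2 fold change -0.20, edgeR adjusted p = 0.584).

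Myoz1 (ENSRNOG00000040122) encodes calsarcin-2, which binds alpha-actinin and calcineurin in fast fibres. Its values were 22.5, 23.9 and 27.3 CPM in mitoplasts, 20, 27.9 and 27.5 CPM in proteinase K-treated captured mitochondria, 35.1, 30.7 and 29.7 CPM in captured mitochondria, and 111, 135 and 121 CPM in crude mitochondria. The crude libraries were highest, and captured mitochondria without proteinase K lay above the 2 other bead-captured preparations. Myoz1 counts were 2.29 to 3.43 times the olfactory receptor median in bead-captured libraries and 14.5 to 15.3 times in crude libraries. Myoz1 fell, with log2 fold changes of -2.32 ± 0.101 in mitoplasts, -2.3 ± 0.1 in proteinase K-treated captured mitochondria and -1.94 ± 0.0987 in captured mitochondria (SE; edgeR adjusted p = 2.66e-26, 3.09e-26 and 3.33e-23), was lower by library size as well, and turned to higher when scaled to mitochondrial mRNA.

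Myot (ENSRNOG00000047186) encodes myotilin, which binds alpha-actinin and filamin C and crosslinks actin. It ranged over 14.6 to 21.5 CPM in mitoplasts, 16.2 to 20 CPM in proteinase K-treated captured mitochondria, 17.1 to 24.6 CPM in captured mitochondria and 55.9 to 68.1 CPM in crude mitochondria. Only the crude libraries stood apart. Myot fell, with log2 fold changes of -1.74 ± 0.124 in mitoplasts, -1.75 ± 0.123 in proteinase K-treated captured mitochondria and -1.56 ± 0.124 in captured mitochondria (SE; edgeR adjusted p = 4.35e-17, 3.11e-17 and 3.71e-15), was lower by library size and higher when scaled to mitochondrial mRNA. Its raw counts were 67 to 110 in the bead-captured libraries and 228 to 255 in crude libraries. These were 1.76 to 2.41 times the olfactory receptor median in bead-captured libraries and 7.35 to 7.73 times in crude libraries.

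Ldb3 (ENSRNOG00000059166) encodes ZASP, also called Cypher, a PDZ and LIM domain protein that binds alpha-actinin. It ranged over 88.1 to 91.3 CPM in mitoplasts, 80.9 to 88.3 CPM in proteinase K-treated captured mitochondria, 84.9 to 90.0 CPM in captured mitochondria and 137 to 168 CPM in crude mitochondria. The 3 bead-captured preparations overlapped one another closely. Ldb3 fell, with log2 fold changes of -0.72 ± 0.0794 in mitoplasts, -0.82 ± 0.0798 in proteinase K-treated captured mitochondria and -0.76 ± 0.0807 in captured mitochondria (SE; edgeR adjusted p = 2.85e-10, 5.36e-12 and 9.16e-11), but was higher in all of them by library size (106 to 111 in mitoplasts, 98.5 to 108 after proteinase K and 101 to 107 in captured mitochondria, against 74.4 to 93.1 in crude mitochondria) and when scaled to mitochondrial mRNA.

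Flnc (ENSRNOG00000007281) encodes filamin C, the muscle filamin that crosslinks actin at the Z-disc and at the membrane. It had 164, 178 and 176 CPM in mitoplasts, 152, 177 and 160 CPM in proteinase K-treated captured mitochondria, 149, 163 and 166 CPM in captured mitochondria, and 240, 267 and 226 CPM in crude mitochondria. The crude libraries lay above all others, and the 3 bead-captured preparations overlapped one another. It fell, with log2 fold changes of -0.50 ± 0.0758 in mitoplasts, -0.59 ± 0.076 in proteinase K-treated captured mitochondria and -0.62 ± 0.0769 in captured mitochondria (SE; edgeR adjusted p = 1.54e-06, 2.83e-08 and 1.03e-08), and was higher in all of them by library size and when scaled to mitochondrial mRNA. Its raw counts stood 18.3 to 21.3 times above the olfactory receptor median in mitoplasts, 17.4 to 20 times in proteinase K-treated captured mitochondria, 14.6 to 18.2 times in captured mitochondria and 27.0 to 31.6 times in crude mitochondria.

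Des (ENSRNOG00000019810) encodes desmin, the intermediate filament protein of muscle. It had 39.8, 47.0 and 41 CPM in mitoplasts, 44.4, 42.9 and 42.2 CPM in proteinase K-treated captured mitochondria, 42.1, 43.4 and 41.1 CPM in captured mitochondria, and 152, 193 and 162 CPM in crude mitochondria. The bead-captured preparations had nearly the same mean, between 42.2 and 43.2 CPM. Des fell, with log2 fold changes of -1.98 ± 0.088 in mitoplasts, -1.96 ± 0.0876 in proteinase K-treated captured mitochondria and -2 ± 0.0899 in captured mitochondria (SE; edgeR adjusted p = 7.17e-26, 8.71e-26 and 1.49e-25), was lower by library size as well, and turned to higher when scaled to mitochondrial mRNA. Desmin is also made by smooth muscle. A joint list of 9 smooth muscle and pericyte markers summed to 522 to 535 CPM in mitoplasts and 526 to 533 CPM in proteinase K-treated captured mitochondria. Their sum was 512 to 537 CPM in captured mitochondria and 522 to 569 CPM in crude mitochondria. None of these 9 markers was called in any of the 3 comparisons by edgeR or DESeq2. In mitoplasts, after proteinase K and in captured mitochondria, 4.54%, 5.03% and 5.11% of all genes fell by edgeR. In the same order 2, 0 and 2 markers had an unadjusted edgeR p under 0.05. No share of all genes is given here for that level, so these counts cannot be set against a background. The part of smooth muscle in the Des difference was not tested.

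The myomesins of the M-band were among the genes that differed least. Myom1 (ENSRNOG00000057701), which encodes the myomesin found in all striated muscle, had 95.4, 97.3 and 88.2 CPM in mitoplasts, 83.8, 89.2 and 92.9 CPM in proteinase K-treated captured mitochondria, 101, 94.9 and 108 CPM in captured mitochondria, and 131, 138 and 105 CPM in crude mitochondria. The third crude library, at 105 CPM, lay inside the range of captured mitochondria and above the mitoplast and proteinase K libraries. Myom1 fell, with log2 fold changes of -0.41 ± 0.0843 in mitoplasts, -0.50 ± 0.0847 in proteinase K-treated captured mitochondria and -0.30 ± 0.0847 in captured mitochondria (SE; edgeR adjusted p = 0.000398, 1.65e-05 and 0.0175), and was higher in all of them by library size and when scaled to mitochondrial mRNA. By edgeR, the call in captured mitochondria was lost without captured library 1 (log2 fold change -0.30, adjusted p = 0.07), captured library 2 (-0.26, adjusted p = 0.12), crude library 1 (-0.27, adjusted p = 0.0505) or crude library 2 (-0.23, adjusted p = 0.0915). It was also lost when only these 2 groups were fitted (-0.30, adjusted p = 0.0813).

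Myom2 (ENSRNOG00000011754) encodes M-protein, the M-band component of fast fibres and heart. It ranged over 99.8 to 108 CPM in mitoplasts, 98.2 to 100 CPM in proteinase K-treated captured mitochondria, 98.0 to 108 CPM in captured mitochondria and 135 to 154 CPM in crude mitochondria. The crude libraries lay above all others, and the bead-captured preparations overlapped. Myom2 fell, with log2 fold changes of -0.51 ± 0.0763 in mitoplasts, -0.57 ± 0.0765 in proteinase K-treated captured mitochondria and -0.52 ± 0.0773 in captured mitochondria (SE; edgeR adjusted p = 9.1e-07, 5.73e-08 and 9.34e-07), and was higher in all of them by library size and when scaled to mitochondrial mRNA.

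**Figure D2:**
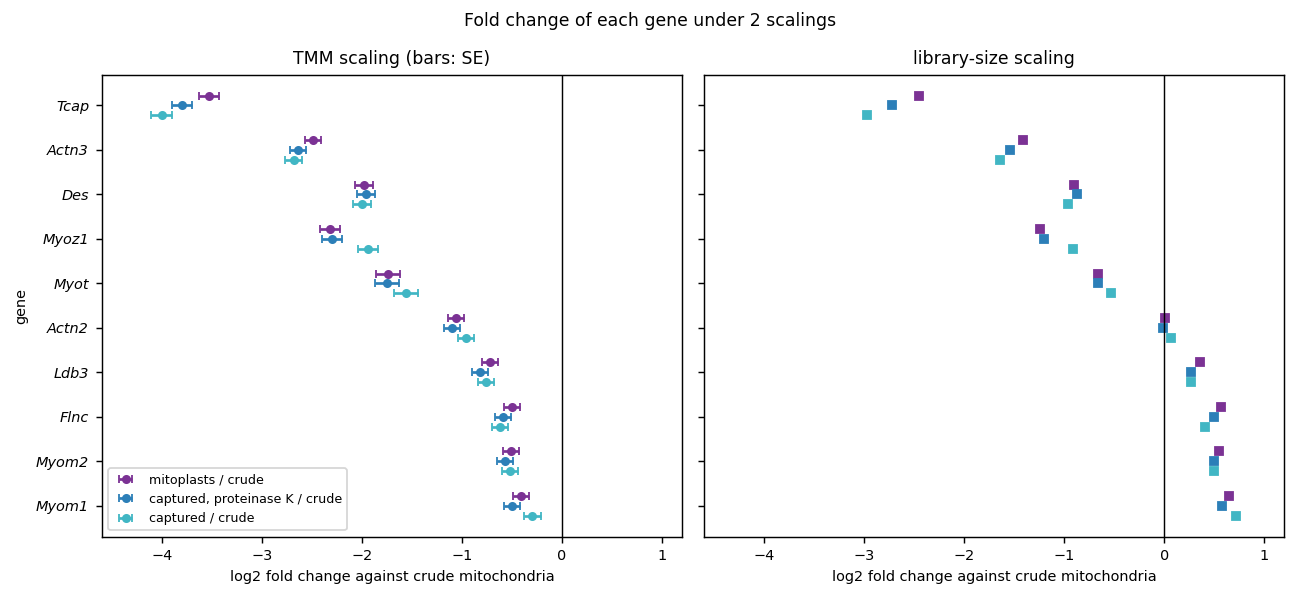
Log2 fold change of each gene in mitoplasts, proteinase K-treated captured mitochondria and captured mitochondria against crude mitochondria, with TMM scaling on the left (bars, SE) and library-size scaling on the right. With TMM scaling all points lie below 0, and with library-size scaling Ldb3, Flnc, Myom1 and Myom2 lie above 0, Actn2 lies close to 0, and Actn3, Tcap, Des, Myoz1 and Myot stay below 0.

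Across the set, the median log2 fold change was -1.40 in mitoplasts, -1.42 in proteinase K-treated captured mitochondria and -1.26 in captured mitochondria, against 0.00, 0.00 and 0.01 for all genes tested. Dividing by total counts moved the median of all genes to 1.07, 1.08 and 1.03 and that of the set to -0.32, -0.33 and -0.23. Scaling to mitochondrial mRNA moved the median of all genes to 4.93, 4.95 and 3.81 and that of the set to 3.54, 3.54 and 2.56. On that scale 10, 10 and 9 genes of the set were called higher by edgeR, beside 99.9%, 99.9% and 99.8% of all genes. Each of these scalings shifts all genes of a library together, so the distance between the set and the median gene is not changed by the choice beyond rounding and the fit.

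The genes differed widely among themselves. Of the 10 genes, 6 were lower by more than 1 log2 unit in mitoplasts, beside 1.25% of all genes, 6 in proteinase K-treated captured mitochondria, beside 1.29%, and 5 in captured mitochondria, beside 1.28%. The CPM ranges of 10 genes lay wholly below those of crude mitochondria in mitoplasts (10.7% of all genes), of 10 after proteinase K (11.3%) and of 9 in captured mitochondria (10.9%), where Myom1 overlapped. By library size, 5 genes lay wholly below in each comparison, Actn3, Myoz1, Myot, Tcap and Des, and 4 lay wholly above, Ldb3, Flnc, Myom1 and Myom2. For all genes the shares were 0.702% below and 93.2% above in mitoplasts, 0.714% and 93.4% after proteinase K, and 0.74% and 92% in captured mitochondria.

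The set as a whole took a small part of each library. Its summed counts were 0.0840 ± 0.003% of all counts in mitoplasts, 0.0804 ± 0.00227% in proteinase K-treated captured mitochondria, 0.0806 ± 0.00281% in captured mitochondria and 0.0977 ± 0.0102% in crude mitochondria (SD, n = 3 each). The crude range of 0.0876 to 0.108% lay above the 3 others, which spanned 0.0777 to 0.0873%, although in crude mitochondria about as many counts came from the mitochondrial genome as from all nuclear genes. A two-sided exact permutation test gave p = 0.1 for each of the 3 comparisons with crude mitochondria, the smallest value that 3 libraries against 3 allow, and 0.2 after adjustment over 6 comparisons. Counted over nuclear genes only, the set took 0.0869 ± 0.00305% in mitoplasts, 0.0826 ± 0.00265% in proteinase K-treated captured mitochondria, 0.0862 ± 0.00095% in captured mitochondria and 0.194 ± 0.0131% in crude mitochondria.

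Because the genes differed in how far they fell, the make-up of the set's counts differed between preparations, and this does not depend on how libraries are scaled against each other. Actn3 supplied 9.62% of the set's counts in mitoplasts, 9.14% in proteinase K-treated captured mitochondria, 8.54% in captured mitochondria and 22.1% in crude mitochondria. Tcap supplied 2.11%, 1.84% and 1.54% in the same bead-captured preparations and 9.95% in crude mitochondria. The shares of Des and Myoz1 were likewise smaller in the bead-captured preparations, at 6.14 to 6.57% for Des against 9.91% in crude mitochondria and 3.55 to 4.65% for Myoz1 against 7.2%. Flnc moved the other way, with 25.0% in mitoplasts, 24.7% after proteinase K, 23.2% in captured mitochondria and 14.4% in crude mitochondria. Myom1 took 13.5 to 14.8% in the bead-captured preparations and 7.33% in crude mitochondria, Myom2 15.0 to 15.1% and 8.72%, and Ldb3 12.8 to 13.0% and 8.71%. In the bead-captured preparations the counts thus lay more with filamin C, the myomesins and ZASP, and less with the fast-fibre alpha-actinin and telethonin. These shares were not corrected for an off-tissue level of counts or for transcript length. In bead-captured libraries the multiple of the olfactory receptor median was 1.02 to 1.92 for Tcap, 4.11 to 5.22 for Des and 14.6 to 21.3 for Flnc. In crude libraries it was 19.3 to 21.3, 19.3 to 21.9 and 27.0 to 31.6. The part of an off-tissue level in the shares was not tested.

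**Figure D3:**
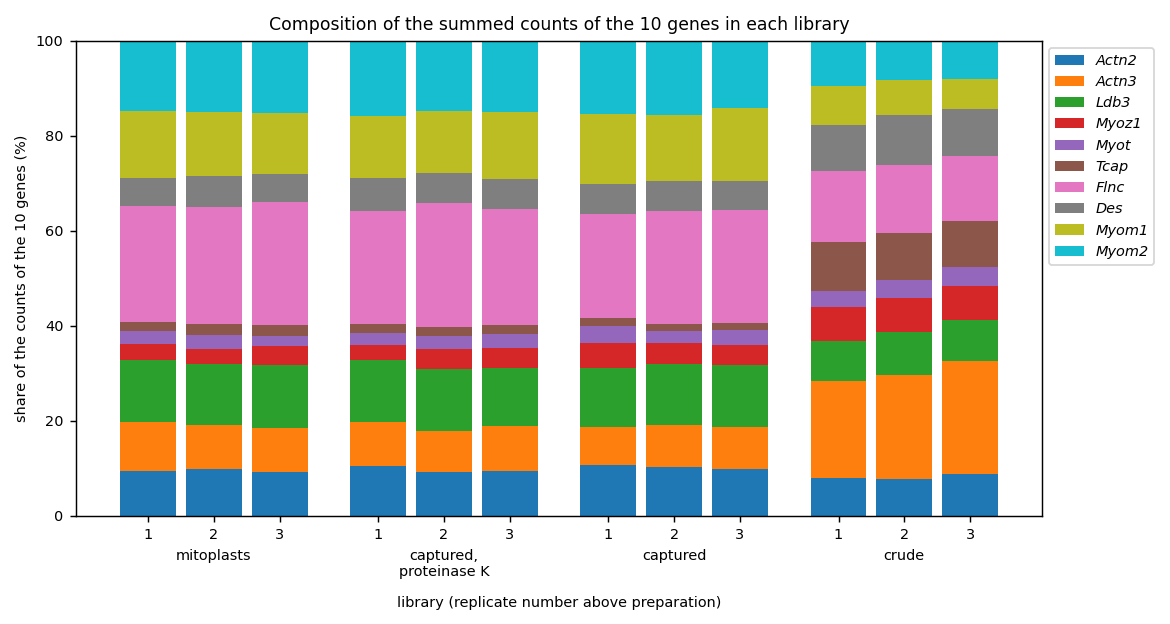
Share of the summed counts of the 10 genes that each gene supplied, in percent, 1 bar a library; libraries run from mitoplasts through proteinase K-treated captured and captured mitochondria to crude mitochondria. Actn3 takes 22.1% and Tcap 9.95% of the crude counts on average and at most 9.62% and 2.11% on average in any bead-captured preparation.

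Ratios between members within a library show the same differences without any scaling. The 9 bead-captured libraries, which come from 3 preparations, were pooled and set against the 3 crude libraries for 4 pairs of genes. Two-sided exact permutation tests were used, whose smallest possible p is 0.00909 with the 9 pooled and 0.1 for 1 preparation alone. In mitoplasts, after proteinase K and in captured mitochondria, the mean log2 ratios were 0.03, -0.08 and -0.26 for Actn3 to Actn2. For Tcap to Ldb3 they were -2.63, -2.79 and -3.05. The genes were chosen with earlier results of these data known. The count ratio of the alpha-actinins, Actn3 to Actn2, was 0.743 to 1.08 in bead-captured libraries and 2.60 to 2.88 in crude libraries. On the log2 scale it averaged -0.10 ± 0.15 in bead-captured libraries and 1.45 ± 0.07 in crude libraries (SD), a difference of -1.56 (exact p = 0.00909, adjusted p = 0.0121 over the 4 pairs). Tcap to Ldb3 was 0.117 to 0.176 in bead-captured libraries and 1.10 to 1.18 in crude libraries, a log2 difference of -3.02 (exact p = 0.00909, adjusted p = 0.0121). Myoz1 to Myot was 1.11 to 1.87 in bead-captured libraries and 1.90 to 1.99 in crude libraries, a log2 difference of -0.49 (exact p = 0.00909, adjusted p = 0.0121). The ratio of the M-band genes, Myom2 to Myom1, was 0.909 to 1.19 in bead-captured libraries and 1.12 to 1.29 in crude libraries, and these ranges overlapped (log2 difference -0.14, exact p = 0.1, adjusted p = 0.1). A ratio shows that 2 genes changed unequally and does not show which of them changed. It also does not remove an off-tissue level of counts. Counts of Tcap, Myot and Myoz1 were 1.02 to 1.92, 1.76 to 2.41 and 2.29 to 3.43 times the olfactory receptor median in bead-captured libraries. In crude libraries they were 19.3 to 21.3, 7.35 to 7.73 and 14.5 to 15.3 times, and the ratios were not corrected for this.

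**Figure D4:**
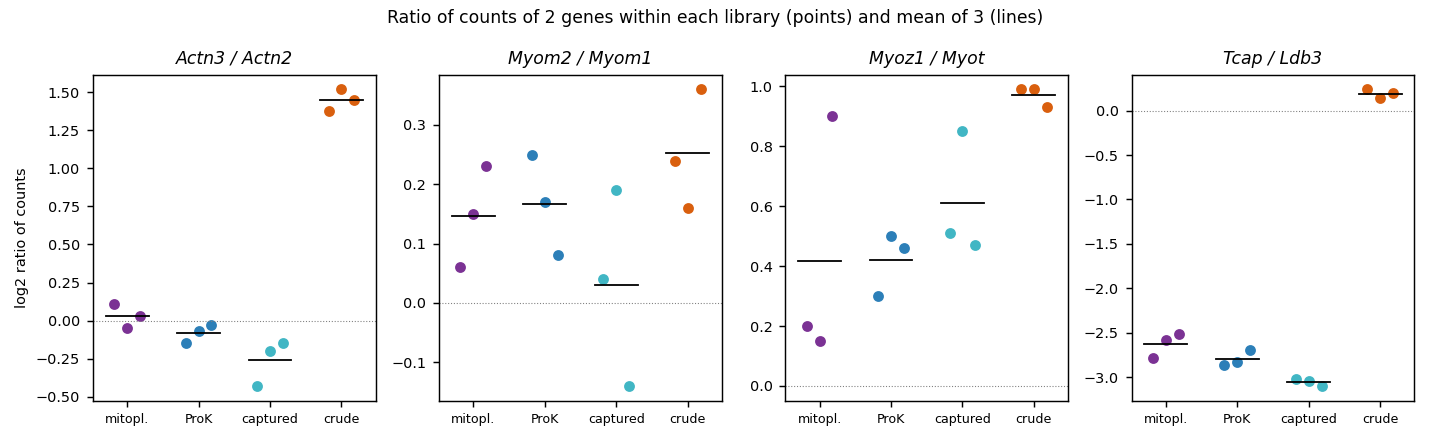
Log2 ratio of counts of 2 genes within each library for Actn3 to Actn2, Myom2 to Myom1, Myoz1 to Myot and Tcap to Ldb3, in mitoplasts, proteinase K-treated captured mitochondria (ProK), captured mitochondria and crude mitochondria; points are libraries and lines are means of 3. The crude libraries stand clear of all others for Actn3 to Actn2 (2.60 to 2.88 as a ratio) and Tcap to Ldb3 (1.10 to 1.18), and overlap them for Myom2 to Myom1.

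Among the bead-captured preparations, no gene of the set passed the threshold. Proteinase K-treated captured mitochondria against captured mitochondria had 0 of 10 genes called by edgeR, beside 0.14% of all genes, 0 of the 9 with an adjusted p from DESeq2, beside 0.796%, and 2 genes at an unadjusted p under 0.05, beside 8.87% of all genes. Myoz1 had 25.1 ± 4.46 CPM after proteinase K and 31.8 ± 2.88 CPM without it (SD, n = 3 each; log2 fold change -0.36, 95% interval -0.60 to -0.11, edgeR adjusted p = 0.327). Myom1 had 88.6 ± 4.57 CPM after proteinase K and 101 ± 6.45 CPM without it (log2 fold change -0.19, 95% interval -0.37 to -0.02, edgeR adjusted p = 0.5). The ranges did not overlap for Actn2, Myoz1 and Myom1, which were lower after proteinase K (8.22% of all genes), and for Tcap, which was higher (8.46% of all genes). By library size Actn2 and Myoz1 overlapped, Myom1 stayed lower (4.24% of all genes) and Tcap higher (13.1%).

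Mitoplasts against captured mitochondria also had 0 of 10 genes called by edgeR, beside 0.155% of all genes, 0 of the 7 with an adjusted p from DESeq2, beside 0.865%, and 2 at an unadjusted p under 0.05, beside 8.98%. Tcap had 14.6 ± 1.71 CPM in mitoplasts and 10.5 ± 0.101 CPM in captured mitochondria (SD, n = 3 each), with every mitoplast library above every captured one. Its log2 fold change was 0.47 (95% interval 0.16 to 0.78, edgeR adjusted p = 0.342). Myoz1 had 24.6 ± 2.47 CPM in mitoplasts and 31.8 ± 2.88 CPM in captured mitochondria (log2 fold change -0.38, 95% interval -0.62 to -0.13, edgeR adjusted p = 0.337). On CPM ranges, Myoz1 lay wholly below captured mitochondria (7.98% of all genes), and Tcap and Actn3 lay wholly above them (7.99%). By library size Myoz1 overlapped, with 0 genes of the set below (4.47% of all genes), and Tcap, Actn3 and Flnc lay above (11.4%). Scaled to mitochondrial mRNA, all 10 genes were called higher in mitoplasts and after proteinase K than in captured mitochondria, beside 93.4% and 94% of all genes. Mitoplasts against proteinase K-treated captured mitochondria had 0 genes of the set called by edgeR and DESeq2, beside 0% of all genes, and 0 at an unadjusted p under 0.05, beside 2.8%. Tcap and Actn3 were higher in each mitoplast library than in each proteinase K library (4.7% of all genes), at 12.7 to 15.9 against 11.4 to 12.6 CPM for Tcap and 63.5 to 68.5 against 59.3 to 61.1 CPM for Actn3. The same 2 genes were apart by library size (4.04% of all genes). The median log2 fold change of the set was -0.06 after proteinase K against captured mitochondria, 0.01 in mitoplasts against captured mitochondria, and 0.07 in mitoplasts against proteinase K-treated captured mitochondria, where the median of all genes was 0.

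Ordered by mean, crude mitochondria were highest for all 10 genes on the TMM scale, and below them the order was mostly within the spread of the libraries. For Ldb3, Myot, Flnc, Des, Myom2 and Actn2 no neighbouring pair of bead-captured preparations had ranges apart. For Tcap the order was mitoplasts, proteinase K-treated captured and captured mitochondria, with each neighbouring pair apart, and for Actn3 the order was the same with mitoplasts apart from the others. Captured mitochondria were apart from both others for Myoz1, and for Myom1 no neighbouring pair was apart, crude and captured mitochondria included.

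The other genes of the Z-disc were mixed. Of 32 measured, 15 fell and 0 rose in mitoplasts, 18 fell and 0 rose in proteinase K-treated captured mitochondria, and 19 fell and 0 rose in captured mitochondria, each against crude mitochondria (edgeR). Of all genes, 4.54%, 5.03% and 5.11% fell in the same order, and DESeq2 called 11, 15 and 15 of the 32. The median log2 fold changes of the 32 were -0.30, -0.34 and -0.34, by library size 0.78, 0.75 and 0.68, and scaled to mitochondrial mRNA 4.64, 4.63 and 3.46. Fhl1, a LIM domain protein of the sarcomere, had 39.1 ± 0.66 CPM in captured mitochondria and 132 ± 12 CPM in crude mitochondria (log2 fold change -1.75 ± 0.0875, adjusted p = 1.78e-23). Cryab, a small heat shock protein that guards desmin and titin, had 12.7 ± 0.983 CPM in captured mitochondria and 43.5 ± 1.84 CPM in crude mitochondria (-1.77 ± 0.136, adjusted p = 1.09e-15). Pdlim3, an alpha-actinin partner related to ZASP, had a log2 fold change of -1.25 ± 0.112, and Synpo2, which binds actin and filamin, one of -0.82 ± 0.0851 (edgeR adjusted p = 2.93e-13 and 3.55e-11).

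Of 12 other genes linked to the M-band, 4 fell in mitoplasts, 3 in proteinase K-treated captured mitochondria and 5 in captured mitochondria, and 0 rose in each (edgeR). Beside them 4.54%, 5.03% and 5.11% of all genes fell, and DESeq2 called 3, 3 and 4 of the 12. The median log2 fold changes of the 12 were -0.05, -0.08 and -0.14, close to the median of all genes, by library size 1.02, 1.00 and 0.89, and scaled to mitochondrial mRNA 4.88, 4.86 and 3.70. Trim63, the ubiquitin ligase MuRF1 that binds titin at the M-band, had 29.2 ± 1.11 CPM in captured mitochondria and 61.6 ± 11.3 CPM in crude mitochondria (log2 fold change -1.07 ± 0.119, adjusted p = 3.78e-10). Its relative Trim54 fell, with -0.92 ± 0.0967, and so did Cmya5, or myospryn, with -0.87 ± 0.102 in the same comparison (edgeR adjusted p = 5.36e-11 and 1.39e-09). Speg, a muscle kinase related to obscurin, fell by 0.24 ± 0.0726 in captured mitochondria (edgeR adjusted p = 0.03), with log2 fold changes of -0.06 in mitoplasts and -0.10 after proteinase K that were not called (adjusted p = 0.735 and 0.527).

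Of 27 genes of intermediate filaments, costameres and the dystrophin complex, which link the Z-disc to the membrane, 6 fell in mitoplasts, 8 in proteinase K-treated captured mitochondria and 7 in captured mitochondria, and 0 rose in each (edgeR). Beside them 4.54%, 5.03% and 5.11% of all genes fell, and DESeq2 called 4, 5 and 6 of the 27. The median log2 fold changes were -0.20, -0.16 and -0.12, by library size 0.88, 0.92 and 0.90, and scaled to mitochondrial mRNA 4.73, 4.78 and 3.68. Vim, the vimentin of mesenchymal cells, differed most in this list, with 24.8 ± 2.79 CPM in captured mitochondria and 219 ± 13.9 CPM in crude mitochondria (log2 fold change -3.14 ± 0.0937, edgeR adjusted p = 7.28e-34). Beside it, 8 fibroblast markers summed to 576 to 596 CPM in mitoplasts, 569 to 570 CPM after proteinase K, 589 to 618 CPM in captured mitochondria and 1820 to 1990 CPM in crude mitochondria. Their part in the vimentin difference was not tested. Fermt2, or kindlin-2, had a log2 fold change of -0.60 ± 0.092, Itgb1, the beta1 integrin, of -0.56 ± 0.101 and Plec, the linker plectin, of -0.43 ± 0.0841 in captured mitochondria (edgeR adjusted p = 1.58e-06, 4.45e-05 and 0.000203). In these 3 lists the genes of the other comparisons, among the bead-captured preparations, gave 0 calls by edgeR and 0 by DESeq2, which gave an adjusted p to 15, 7 and 12 of the genes after proteinase K against captured mitochondria, 15, 6 and 11 in mitoplasts against captured mitochondria, and all of them in the third comparison. Counts at an unadjusted p under 0.05 are given in the order Z-disc, M-band, costamere. They were 4, 2 and 2 after proteinase K against captured mitochondria, beside 8.87% of all genes. In mitoplasts against captured mitochondria they were 4, 2 and 1, beside 8.98%. In mitoplasts against proteinase K-treated captured mitochondria they were 1, 1 and 2, beside 2.8%.

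The markers of skeletal muscle fibres had counts in all libraries and mostly fell, as the set did. Of 13 measured, 13 fell in mitoplasts, 12 in proteinase K-treated captured mitochondria and 13 in captured mitochondria (edgeR), and 0 rose. Of all genes, 4.54%, 5.03% and 5.11% fell in the same order, and DESeq2 called 12, 12 and 13 of these markers. Their summed level was 1090 to 1280 CPM in mitoplasts, 1030 to 1070 CPM after proteinase K, 1010 to 1160 CPM in captured mitochondria and 6080 to 7730 CPM in crude mitochondria. Their median log2 fold changes, at -2.79, -3.16 and -2.87, were farther from 0 than those of the structural set. By library size they were -1.70, -2.06 and -1.84, and scaled to mitochondrial mRNA 2.17, 1.83 and 0.94. Acta1, skeletal actin, had 27.0 ± 8.69 CPM in captured mitochondria and 1750 ± 194 CPM in crude mitochondria. It differed most of the 13, whose log2 fold changes in captured mitochondria ran from -6.01 for Acta1 to -0.43 for Cacna1s, with Ryr1 at -0.61. Cacna1s was the marker not called after proteinase K (log2 fold change -0.22, edgeR adjusted p = 0.0631).

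Among markers of other cell types, 7, 7 and 6 of the 8 fibroblast markers fell in mitoplasts, after proteinase K and in captured mitochondria (edgeR). Beside them 4.54%, 5.03% and 5.11% of all genes fell, and DESeq2 called 6, 7 and 6 of the fibroblast markers. Their median log2 fold changes were -1.20, -1.26 and -1.17, and scaled to mitochondrial mRNA 3.74, 3.69 and 2.66. The 7 endothelial markers summed to 555 to 557 CPM in mitoplasts, 519 to 550 CPM after proteinase K, 545 to 564 CPM in captured mitochondria and 557 to 582 CPM in crude mitochondria, and 0 were called by edgeR or DESeq2. At an unadjusted edgeR p under 0.05 there were 0, 0 and 1, again with no share of all genes to set them against. The 4 satellite cell markers summed to 154 to 166, 149 to 153, 155 to 161 and 142 to 170 CPM in the same order of preparations. By either tool 0 were called, and 0 had an unadjusted edgeR p under 0.05, with no share of all genes for the latter. Of 7 macrophage and leukocyte markers, 3, 2 and 2 fell by edgeR and DESeq2 called 2, 2 and 2, with sums of 375 to 391, 383 to 402, 387 to 393 and 411 to 447 CPM. Of 6 Schwann cell and nerve markers, 1, 1 and 0 fell by edgeR and 0 by DESeq2. Their sums were 241 to 269, 236 to 252, 244 to 254 and 243 to 280 CPM. No marker of any list was at 0 in all libraries of a preparation. Of all genes in the table, 95.8 to 96.7% had a count in a given library, so a count above 0 does not show that a cell type was present.

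Among 16746 other named genes with a mean of at least 50 counts, the 5 whose profiles over the 12 libraries were nearest to the median profile of the set were Hspa8, Ckmt2, Ddx5, Igfbp5 and Pgm1. The measure was the root-mean-square distance of log2 CPM values, each centred on its own mean, and it was 0.0826 for Hspa8, a constitutive heat shock protein, 0.0895 for Ckmt2, the mitochondrial creatine kinase of the sarcomere, 0.0994 for Ddx5, an RNA helicase, 0.111 for Igfbp5, a growth factor binding protein, and 0.114 for Pgm1, phosphoglucomutase. The set's own genes lay at 0.13 for Actn2 to 1.06 for Tcap. Hspa8 had 69.0 to 82.1 CPM in the 9 bead-captured libraries and 176 to 189 CPM in the crude libraries. Ckmt2 had 32.1 to 38.4 CPM in the bead-captured libraries and 87.0 to 101 CPM in the crude libraries. These profiles are described as alike over libraries that fall into crude and bead-captured preparations, and nothing further was tested.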

How the data were processed

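The table deposited by the authors gives raw read counts, 1 whole number for each Ensembl gene and library, as its header and values show (per the file headers). Per the submitters' processing notes, the authors used FastQC 0.74, cutadapt 4.6, STAR 2.7.11a and HTSeq with mRatBN7.2; the annotation release, strand setting and handling of multiply mapped reads were not given in the sources used here. Per the labels' protocols, RNA was DNase-treated and ribosomal RNA was depleted. The table held 0 columns of other samples. The genes and lists were chosen with earlier results of these data known.

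Counts were tested with edgeR 4.0.16 in R 4.3.3: quasi-likelihood F test, TMM scaling, filterByExpr (minimum count 10; 26483 genes), 12 libraries in 1 model of 4 groups, Benjamini-Hochberg adjustment over all genes, threshold 0.05. The script was tested on simulated data with a common profile and dispersion for all libraries, apart from genes changed in captured mitochondria. These data did not imitate the mitochondrial share of crude libraries, so they do not test the choice of scaling. SEs use dispersions moderated over all genes. Shares and ratios were compared by exact permutation with SciPy 1.17.1. All 10 genes were named, with the 4 of smallest p between captured and crude mitochondria in each related list and the 5 nearest profiles. Of the muscle fibre markers, Acta1, Ryr1 and Cacna1s were named outside this rule with their values seen. Palld, Smpx, Krt19, Myh1, Atp2a1, Pvalb and Cldn5 were listed, but no gene in the deposited counts carried these names, so they were not analysed here. Alternatives were DESeq2 1.42.0, other scalings, no filter, a replicate block, only the groups compared, and each library left out. PCR copies are not independent molecules. No replicate pair agreed within sampling noise (chi-square over degrees of freedom 1.24 to 12.1).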

Additional observations from a re-analysis of the deposited data

How the results depend on the processing

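Against crude mitochondria the number of structural genes called was 10 in each comparison with DESeq2, RLE size factors, no filter and a replicate block, 9 in captured mitochondria with only those 2 groups fitted, and 9 to 10 in captured mitochondria and 10 to 10 in the others with 1 library left out. Leaving out 1 library gave medians of -1.49 to -1.31 in mitoplasts, -1.50 to -1.38 after proteinase K and -1.34 to -1.20 in captured mitochondria. Replicate numbers did not pair the libraries: same-numbered libraries had correlations of -0.102 to 0.0665, and 6 of 12 correlated best with their own number. The replicate block, which used these numbers, gave 10, 10, 10, 0, 0 and 0 calls and changed none. Over all genes, calls after proteinase K against captured mitochondria numbered 155 with only the groups compared and 37 with all 4 groups in the model, those in mitoplasts 116 and 41, and those between mitoplasts and proteinase K-treated captured mitochondria 12 and 0; with 1 library left out they were 23 to 35, 24 to 41 and 0 to 1. Against crude mitochondria DESeq2 called 1007 genes in mitoplasts, 1112 after proteinase K and 1128 in captured mitochondria. In the same order edgeR called 1468, 1718 and 1685. The cause was not tested. With library-size, mitochondrial mRNA and olfactory receptor scaling the count in captured against crude mitochondria was 25273, 26449 and 4535 genes, beside 1685 with TMM. Against captured mitochondria these scalings gave 23, 24890 and 28 calls after proteinase K, beside 37, and 28, 24728 and 28 in mitoplasts, beside 41.

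Scaling changed directions, by its construction, since it moves every gene together. With mitochondrial mRNA scaling 10 genes were called in mitoplasts, 10 after proteinase K and 9 in captured mitochondria, all higher, and 10 in mitoplasts and 10 after proteinase K against captured mitochondria. Its medians were 3.54, 3.54 and 2.56 against crude mitochondria, and 1.10 in mitoplasts and 1.05 after proteinase K against captured mitochondria. Library-size scaling gave medians of -0.32, -0.33 and -0.23, and 0.00 after proteinase K against captured mitochondria. Scaling to olfactory receptor genes gave -1.54 after proteinase K and -1.47 in captured mitochondria against crude mitochondria, and 0.11 in mitoplasts and 0.03 after proteinase K against captured mitochondria.

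Library-size scaling turned these log2 fold changes against crude mitochondria. In mitoplasts they became 0.01 for Actn2, 0.36 for Ldb3, 0.57 for Flnc, 0.65 for Myom1 and 0.55 for Myom2. After proteinase K they became 0.27 for Ldb3, 0.50 for Flnc, 0.58 for Myom1 and 0.50 for Myom2. In captured mitochondria they became 0.07 for Actn2, 0.27 for Ldb3, 0.41 for Flnc, 0.72 for Myom1 and 0.50 for Myom2.

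Mitochondrial mRNA scaling gave, in mitoplasts, 3.88 for Actn2, 2.47 for Actn3, 4.24 for Ldb3, 2.65 for Myoz1, 3.19 for Myot, 1.42 for Tcap, 4.45 for Flnc, 2.97 for Des, 4.52 for Myom1 and 4.42 for Myom2. After proteinase K it gave 3.87 for Actn2, 2.33 for Actn3, 4.15 for Ldb3, 2.66 for Myoz1, 3.21 for Myot, 1.15 for Tcap, 4.37 for Flnc, 3.01 for Des, 4.45 for Myom1 and 4.37 for Myom2. In captured mitochondria it gave 2.89 for Actn2, 1.18 for Actn3, 3.09 for Ldb3, 1.90 for Myoz1, 2.23 for Myot, 3.23 for Flnc, 1.86 for Des, 3.51 for Myom1 and 3.33 for Myom2. Against captured mitochondria it turned, after proteinase K, Actn2 to 0.98, Ldb3 to 1.06, Myoz1 to 0.76, Myot to 0.98, Myom1 to 0.94 and Myom2 to 1.04, and in mitoplasts Actn2 to 1.00, Myoz1 to 0.75, Myot to 0.96 and Myom1 to 1.01. DESeq2 gave no adjusted p to Myot after proteinase K against captured mitochondria, or to Myoz1, Myot and Tcap in mitoplasts against captured mitochondria.

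The summed share differed from crude mitochondria by -0.0458, -0.0495 and -0.0474 percentage points in mitoplasts, after proteinase K and in captured mitochondria when mitochondrial mRNAs were left out. It differed by -0.107, -0.112 and -0.108 without all 37 mitochondrial genes, a choice made after seeing the data. With each library left out, Actn3 to Actn2, Tcap to Ldb3 and Myoz1 to Myot stayed called and Myom2 to Myom1 stayed uncalled. Without a crude library the smallest p that the exact permutation test allows is larger than 0.00909. Counts of 43 to 78 limit Tcap, and 67 to 110 limit Myot, in the bead-captured libraries.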
